A study of Homo sapiens with 5 samples.

Results

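The major histone gene cluster on chromosome 6 was examined in the peak lists of VCaP cells, as the window from 26 to 28 Mb of chromosome 6 in build hg19. Members were all deposited intervals that start in this window. There were 483 of them among the 364358 intervals of the series. H3K27ac contributed 99 peaks in its replicate 1 and 131 in its replicate 2, and H3K4me1 contributed 115 and 138. VCaP is an established human prostate cancer line, for which the labels name no treatment, and all libraries come from this one line. Chromatin immunoprecipitation with sequencing (ChIP-seq) was done with 2 libraries for each of 2 marks of histone H3, acetylated lysine 27 (H3K27ac) and monomethylated lysine 4 (H3K4me1). A single input library (chromatin without immunoprecipitation) is not analysed here. Whether the replicates came from separate cultures is not said, and p-values measure only the spread between these libraries, which may be technical.

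The replication-dependent histone genes encode the core histones H2A, H2B, H3 and H4 and the linker histone H1, which package newly made DNA. They are transcribed mainly in S phase, are short and lack introns, and their transcripts end in a stem-loop in place of a poly(A) tail. H3K27ac marks active promoters and enhancers, whereas H3K4me1 marks enhancers and the flanks of promoters. Both marks sit on the tail of histone H3, a product of the genes in this window.

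The RefSeq gene table is in build GRCh38 rather than hg19 and was therefore used for names and order only, and no gene was assigned to a peak. In that order 53 protein-coding histone genes of chromosome 6 formed 3 long runs, which follow each other as the 3 histone groups of the window do. Another 2 histone genes precede the runs and were not used, and 1 other protein-coding gene lies inside the first run. The first run, from H1-1 to H4C8, held 32 protein-coding histone genes, of which 5 encode H1, 4 H2A, 8 H2B, 7 H3 and 8 H4. The middle run, from H2BC11 to H2AC12, held 5 genes and none for H3 or H1. The last run, from H2BC13 to H2BC17, held 16 genes. Between the first and middle runs the table lists 9 other protein-coding genes, among them the butyrophilin genes BTN3A2, BTN2A2, BTN3A1, BTN3A3, BTN2A1 and BTN1A1 (cell surface proteins of the immunoglobulin superfamily), and 47 transfer RNA genes. Between the middle and last runs it lists 5 other protein-coding genes, among them the zinc finger genes ZNF391 and ZNF184, and 51 transfer RNA genes. No transfer RNA gene lay within any of the 3 runs.

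Short sequence motifs recur in the promoters of these genes. One promoter per run is shown, that of the first H3 gene with an entry or, in the middle run, of its first gene. Each is given as the 250 bases before the start in RefSeq, build GRCh38.p14, with TATAAA and CCAAT on either strand in capitals. The GRCh38 positions cannot be set against the hg19 positions of the peaks.

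H3C1, chr6:26020201-26020450, plus strand: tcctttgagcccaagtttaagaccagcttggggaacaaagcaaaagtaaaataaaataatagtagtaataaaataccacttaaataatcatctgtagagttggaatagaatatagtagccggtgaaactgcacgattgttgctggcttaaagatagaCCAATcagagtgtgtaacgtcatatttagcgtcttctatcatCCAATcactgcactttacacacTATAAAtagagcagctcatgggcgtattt
H2BC11, chr6:27132796-27133045, minus strand: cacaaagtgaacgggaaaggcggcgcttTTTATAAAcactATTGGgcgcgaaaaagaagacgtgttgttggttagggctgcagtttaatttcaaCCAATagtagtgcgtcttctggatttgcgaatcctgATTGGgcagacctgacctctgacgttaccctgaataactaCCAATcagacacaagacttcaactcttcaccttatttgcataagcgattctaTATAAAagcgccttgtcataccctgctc
H3C10, chr6:27809801-27810050, plus strand: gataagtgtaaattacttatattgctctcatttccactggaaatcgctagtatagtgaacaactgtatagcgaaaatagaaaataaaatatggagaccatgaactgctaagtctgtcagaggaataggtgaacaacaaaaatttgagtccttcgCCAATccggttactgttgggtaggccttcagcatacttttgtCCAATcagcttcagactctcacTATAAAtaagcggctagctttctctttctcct

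Promoter sequences were at hand for 48 of the 53 histone genes in the 3 runs, each reaching from 250 bases before to 50 after the start. CCAAT occurred on either strand in 41 of the 48 (85.4%), against 34.6% of all 35116 promoters in the table. It was in every promoter of the H1, H2A, H2B and H3 genes with an entry and in 3 of 10 promoters of H4 genes. TATAAA occurred in 31 of 48 (64.6%), against 11.5% of all promoters. The octamer ATTTGCAT, on either strand, occurred in 8 of 10 H2A and 11 of 14 H2B promoters and in none of the H1, H3 or H4 promoters, against 1.77% of all promoters. Matches of different motifs can share letters at their ends, and TATAAA can overlap its own reverse. These counts describe the reference sequence and say nothing of factors bound in VCaP cells. Of 14 adjacent histone gene pairs that point apart, 9 had overlapping promoter windows, 8 of them an H2A with an H2B gene. A match in the shared part of such windows counts for both genes, so the motif counts of H2A and H2B genes are not fully separate.

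For each mark, peaks sharing at least 1 bp between its libraries were joined, and joined regions with a peak in each library are called replicated regions. The window held 91 replicated H3K27ac and 86 replicated H3K4me1 regions. Histone group 1 was taken as 26 to 26.3 Mb, group 2 as 27 to 27.2 Mb and group 3 as 27.7 to 27.9 Mb. Together they make 0.7 Mb, and the stretches between and after them 1.3 Mb. The outermost replicated H3K27ac regions inside the window start at 26019770 and 27869779, and the nearest ones outside start at 25991796 and 28047435.

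H3K27ac covered a larger share of the histone groups than of the stretches between. In H3K27ac replicates 1 and 2, peaks covered 17.6 and 16.3% of the bases of the groups, against 4.68 and 4.31% of the stretches, so that the groups had 3.76 and 3.79 times the coverage. Outside the window, 2.48 and 2.30% of the autosomes and X lay in H3K27ac peaks. Group 1 was the most covered, with 20.7 and 19.5%, followed by group 3 with 18.6 and 16.7% and group 2 with 12 and 11.2%. In both libraries each group was thus above each stretch, the highest stretch being the one between groups 1 and 2 with 6.27 and 5.64%.

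**Figure D1:**
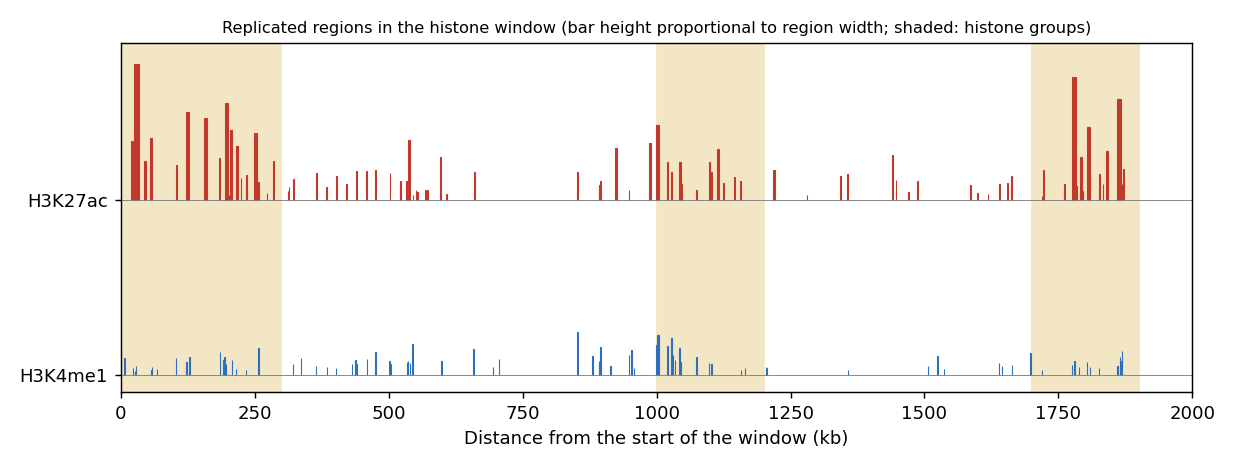
Replicated regions along the window, as distance in kb from its start, with H3K27ac in the upper and H3K4me1 in the lower track. Each bar is 1 region, drawn to its width, and its height is proportional to its width. Histone groups are shaded. Tall H3K27ac bars, up to 9012 bp, stand mainly in the shaded groups 1 and 3, while the tallest H3K4me1 bar, of 2841 bp, lies outside them.

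H3K27ac regions were also more numerous per Mb in the groups. The groups held 44 replicated regions, or 62.9 per Mb (exact Poisson 95% interval 45.7 to 84.4), and the stretches 47, or 36.2 per Mb (26.6 to 48.1), a ratio of 1.74. These intervals, and all others given beside counts and shares, cover counting error only. By single library the ratio was 1.90 in replicate 1 (71.4 against 37.7 peaks per Mb) and 2.41 in replicate 2 (106 against 43.8). Replicate 2 had more of its regions broken into several peaks. In the groups, 17 of 44 regions held more than 1 peak of replicate 2 and 2 held more than 1 of replicate 1, and in the stretches 7 and 0 of 47 did. No genome-wide share of split regions is at hand. Regions of the groups were also wider, as given below, and the part of width in the splitting was not tested.

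Group 3 had the densest H3K27ac regions, with 15 in 0.2 Mb (75 per Mb), ahead of group 1 with 18 (60 per Mb) and group 2 with 11 (55 per Mb). Their counting intervals overlap widely, from 27.5 to 124 per Mb over the 3 groups. The stretch between groups 1 and 2 held 32 regions (45.7 per Mb) and that between groups 2 and 3 held 15 (30 per Mb). The last 100 kb of the window held 0 replicated H3K27ac regions and no peak of either H3K27ac library, which allows up to 36.9 per Mb (exact Poisson limit). The rest of chromosome 6 had 13.8 replicated regions per Mb and the autosomes and X outside the window 16.0, measured between the outermost peaks of each chromosome, sequence gaps included.

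**Figure D2:**
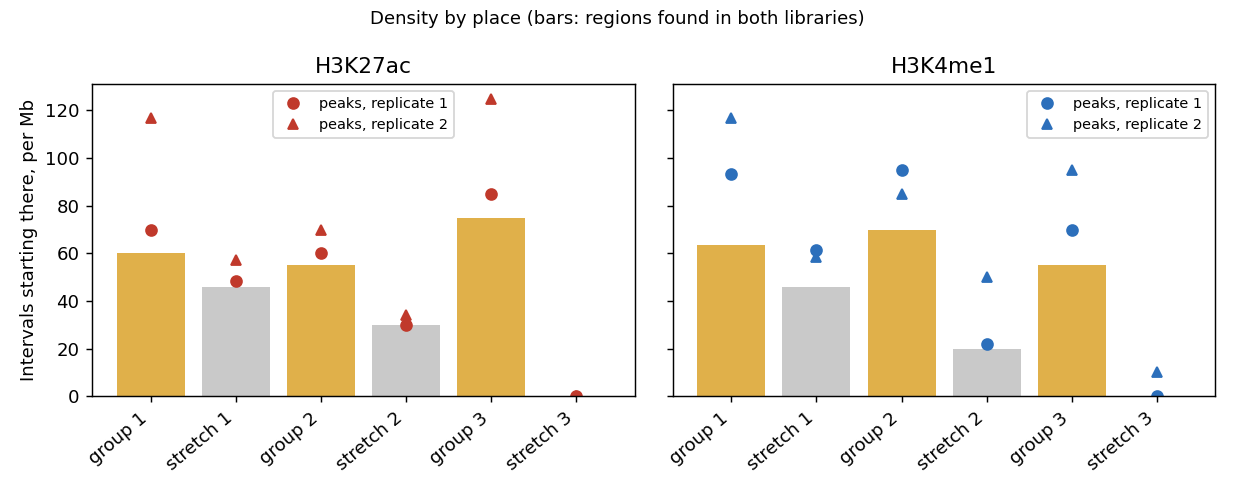
Intervals per Mb in each histone group and stretch, for H3K27ac (left) and H3K4me1 (right). Bars are replicated regions, gold for groups and grey for stretches, and points are the peaks of each library. For both marks the bars of all 3 groups, at 55 per Mb or more, stand above those of the stretches, at 45.7 per Mb or less. The H3K4me1 bar of group 2 is for the whole group, whose part from 27098022 on held 29.4 per Mb.

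The H3K27ac regions of the groups were wide. Their median width was 2195 bp, against 1242 bp in the stretches and 1217 bp on the autosomes and X outside the window. Replicates 1 and 2 alone gave median peak widths of 1826 and 1100 bp in the groups and 1124 and 699 bp in the stretches, ratios of 1.62 and 1.57. Group 1 had the widest regions, with a median of 3208 bp, followed by group 2 with 1892 bp and group 3 with 1760 bp. The medians in the stretches were 1243 bp between groups 1 and 2 and 1124 bp between groups 2 and 3.

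Of the 44 regions in the groups, 21 (47.7%, exact binomial 95% interval 32.5 to 63.3%) were at least 2376 bp wide, the width that the widest 20% of all H3K27ac regions reach. In the stretches 6 of 47 (12.8%, 4.83 to 25.7%) were. Group 1 had 12 of its 18 regions in this class, group 2 had 4 of 11 and group 3 had 5 of 15. Each group also held narrow regions, down to 341 bp in group 1 and 303 bp in group 3.

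**Figure D3:**
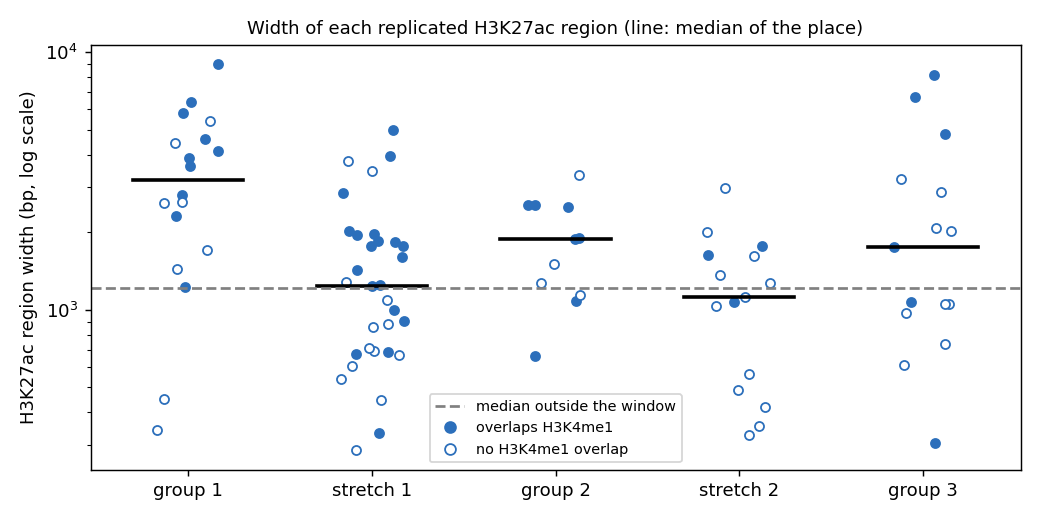
Width of every replicated H3K27ac region by place, on a log axis in bp. Filled points overlap an H3K4me1 region and open points do not. Black lines are medians, and the dashed line is the median of 1217 bp outside the window. The medians of all 3 groups lie above the dashed line, and wide regions of the groups are found both filled and open.

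The widest H3K27ac region of the window lay in group 1 from 26025363 to 26034374 (9012 bp). It was a single peak of 9012 bp in replicate 1 and 4 peaks summing to 7778 bp in replicate 2. Next came 2 regions of group 3, from 27774401 to 27782563 (8163 bp, with 8089 and 7947 bp of peaks in replicates 1 and 2) and from 27859684 to 27866381 (6698 bp, 6409 and 5569 bp). The next 2 lay in group 1, from 26194546 to 26200953 (6408 bp, 6408 and 6078 bp) and from 26122035 to 26127857 (5823 bp, 5823 and 5184 bp). All 5 were thus in groups 1 and 3 and were found at similar length in both libraries. The widest region of group 2 spanned 27112437 to 27115789 (3353 bp). In the stretches the widest was at 26998756 to 27003731 (4976 bp), whose start lies just before the bound of group 2, and the one between groups 2 and 3 at 27438863 to 27441823 (2961 bp).

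Neighbouring H3K27ac regions lay closer together in the groups. The median spacing between regions of the same group was 8866 bp, against 14634 bp within the stretches, a ratio of 0.606. In replicate 1 alone the ratio was 0.490, and in replicate 2 alone, with its split regions, it was 0.149. Spacing outside the window had a median of 18527 bp. The longest run without H3K27ac between regions of the window extended over 190991 bp, from 26660747 to 26851737, in the stretch between groups 1 and 2. It was met by 4 replicated H3K4me1 regions, of which that from 26851475 to 26854315 reaches across its end and onto the next H3K27ac region. The same run was free of H3K27ac in each library, over 191091 and 190991 bp. After the last region of group 3 the next H3K27ac region followed at a distance of 175584 bp, beyond the window.

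Joining H3K27ac regions within 10 kb of each other gave 49 domains in the window, 18 starting in the groups and 31 in the stretches. The 18 domains of the groups held 64.2% of the H3K27ac length in the window, and 6 of them were a single region, against 21 of 31 in the stretches. These counts are not separate from the closer spacing in the groups, and no genome-wide share of single-region domains is at hand. The domain with the most H3K27ac lay in group 1 from 26183034 to 26235866. It had 7 regions and 20.9 kb of H3K27ac (21 and 19.4 kb in replicates 1 and 2), with H3K4me1 over 11.4% of its span. The domain of rank 2, also in group 1, from 26019770 to 26058014, had 19.6 kb (19.4 and 17.7 kb) and 4.34% H3K4me1. That of rank 3, in group 3 from 27774401 to 27808563, had 17.4 kb (18.1 and 16.8 kb) and 9.87% H3K4me1. Joining within 20 kb gave 25 domains.

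H3K4me1 was found on fewer H3K27ac regions of the window than elsewhere, in the groups and in the stretches alike. A replicated H3K4me1 region overlapped 23 of 44 H3K27ac regions in the groups (52.3%, 36.7 to 67.5%) and 22 of 47 in the stretches (46.8%, 32.1 to 61.9%), where the share over all autosomes and X was 73.5%. The groups and stretches differ by less than their counting error. Where an overlap of 50% of the shorter region was asked for, the share stayed at 52.3% in the groups and was 29.8% in the stretches. The 73.5% is for any overlap, and no genome-wide share under the stricter rule is at hand to set beside these values. On the rest of chromosome 6 the share was 66.6% (64.7 to 68.5%), a value just inside the interval of the groups. Group 1 had H3K4me1 on 10 of 18 regions, group 2 on 7 of 11 and group 3 on 6 of 15. The stretch between groups 1 and 2 had it on 19 of 32 (59.4%, 40.6 to 76.3%), an interval that holds the 73.5%. The stretch between groups 2 and 3 had it on 3 of 15 (20%, 4.33 to 48.1%).

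Taken by pairs of single libraries, the share in the groups was 58.0% for H3K27ac replicate 1 with either H3K4me1 library. For H3K27ac replicate 2 it was 44.6% with H3K4me1 replicate 1 and 54.1% with replicate 2. In the stretches the 4 pairs gave 36.7, 55.1, 40.4 and 47.4% in the same order. The genome-wide shares of these pairs were 71.7, 79.8, 69.5 and 77.9%, so each pair was lower in the groups and in the stretches than genome-wide. With peaks of either library counted, the shares were 68.4% in the groups and 61.5% in the stretches, against 82.4% genome-wide.

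Few H3K27ac regions of the window had H3K4me1 beside both ends. A flank counted where a replicated H3K4me1 region covered at least 1 base of the 2 kb outside that end. Both flanks counted in 6 of 44 regions in the groups (13.6%, 5.17 to 27.4%) and in 8 of 47 in the stretches (17.0%, 7.65 to 30.8%), where 46.3% of all H3K27ac regions had both. A single flank counted in 16 regions of the groups (36.4%) and 13 of the stretches (27.7%), both near the 31.0% of all regions. No H3K4me1 on the region or within 2 kb was found for 17 of 44 (38.6%, 24.4 to 54.5%) and 25 of 47 (53.2%, 38.1 to 67.9%), against 19.0% of all regions. With peaks of either library counted, both flanks were present in 31.6% of regions in the groups and 25% in the stretches, against 61.4% genome-wide. Without H3K27ac replicate 1 the share in the groups was 25.7%, and without H3K4me1 replicate 1 it was 25% in the groups and 25.5% in the stretches. Genome-wide shares with a replicate left out are not at hand, so these values cannot be set against the 46.3%.

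**Figure D4:**
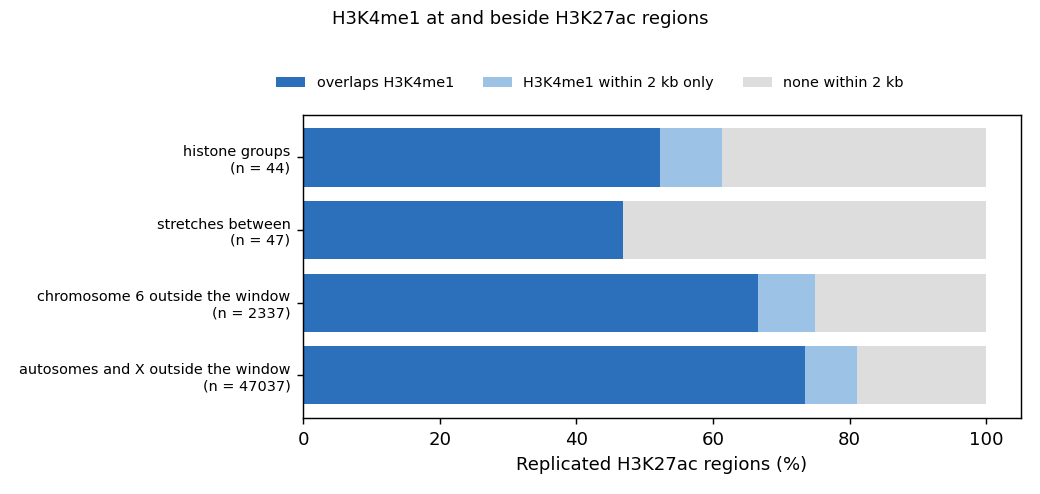
Percentage of replicated H3K27ac regions that overlap H3K4me1, that have it within 2 kb only, or that have none within 2 kb. Rows are the histone groups, the stretches, the rest of chromosome 6 and the autosomes and X outside the window. The grey part, with none within 2 kb, is 38.6% in the groups and 53.2% in the stretches, against 25.0% on the rest of chromosome 6 and 18.9% outside the window.

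H3K27ac regions without H3K4me1 lay farther from it in the stretches than in the groups by median, with ranges that overlap. The 21 such regions in the groups lay at a median of 8158 bp from the nearest replicated H3K4me1 region (range 83 to 25551 bp), and 13 of them (61.9%) at more than 5 kb, near the 58.9% of all such regions on the autosomes and X. The 25 in the stretches lay at a median of 13062 bp (4442 to 75027 bp), and 24 of them (96%) at more than 5 kb. Outside the window the median was 7933 bp. The widest region of group 2, from 27112437, was 9642 bp away from replicated H3K4me1, although H3K4me1 replicate 1 alone covered 5.85% of its length. That from 27438863, between groups 2 and 3, was 64238 bp away, although a peak of H3K4me1 replicate 2 alone covered 8.68% of its length.

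Where H3K4me1 met the wide H3K27ac regions of the groups, it took up little of them and seldom their middle. This was not particular to the groups, since most of the few wide regions of the stretches also had little H3K4me1. Width matters here, because wide regions overlap H3K4me1 more often. Among regions of at least 2376 bp, 14 of 21 in the groups carried H3K4me1 (66.7%, 43.0 to 85.4%), against 84.8% of all regions of that width, a share inside the counting interval of the groups. By length, H3K4me1 covered 16.1% of these 21 regions, 25.3% of the 6 wide regions of the stretches and 50.3% of the wide regions outside the window. With H3K4me1 replicate 1 alone the values were 12.9, 16.6 and 40.6%, and with replicate 2 alone 18.2, 28.9 and 50.8%.

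H3K4me1 lay on the middle base of 1 of the 21 wide regions (4.76%, 0.12 to 23.8%), against 37.5% of wide regions outside the window. With H3K4me1 replicates 1 and 2 alone it lay on the middle of 1 and 2 of the 21. At 0.75 of the way from the middle to an end, 23.8% of positions in the groups and 58.3% outside the window were covered. Over all widths, the middle was covered in 6 of 44 regions of the groups and 7 of 47 of the stretches, against 50.7% of all H3K27ac regions. Of the 23 regions in the groups that carried H3K4me1, 17 (73.9%) had a middle free of it, and of the 22 in the stretches 15 (68.2%) did. Outside the window 31.0% of regions with H3K4me1 had a free middle.

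**Figure D5:**
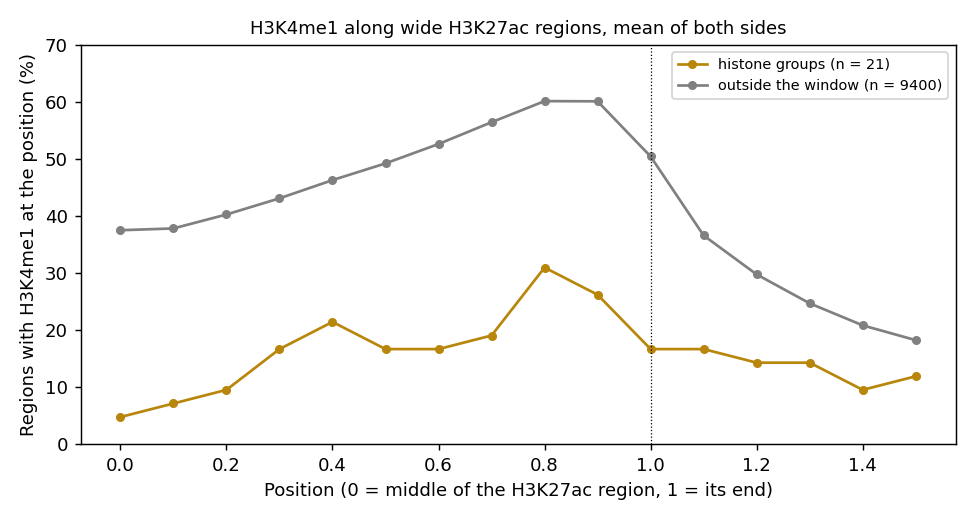
Percentage of H3K27ac regions of at least 2376 bp with H3K4me1 at each relative position, from the middle (0) to the end (1) and beyond, as the mean of both sides. The gold line gives the 21 regions in the histone groups and the grey line the 9400 regions outside the window. Both lines have their highest value at 0.8, with 31.0% in the groups and 60.1% outside, and the gold line starts at 4.76% in the middle.

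The 5 widest regions show this. On the region of 9012 bp from 26025363, replicated H3K4me1 made up 9.17% of the length, as 2 separate regions inside it. H3K4me1 replicates 1 and 2 alone covered 9.98 and 20% of it. The regions of 8163 and 6698 bp in group 3 had 18.5 and 40.3%, and those of 6408 and 5823 bp in group 1 had 11.1 and 15.2%. None of the 5 had H3K4me1 on the middle base. The widest region of the stretch between groups 1 and 2, from 26998756, had H3K4me1 over 92.1% of its length and on its middle (48.6 and 90.4% in H3K4me1 replicates 1 and 2 alone), but most of this region, its middle included, lies past the bound of group 2. Over the 6 wide regions of the stretches, this one among them, H3K4me1 covered 25.3% of the length and the middle of 1.

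Regions of H3K4me1 were also denser in the groups, though not in every part of group 2. The groups held 44 replicated H3K4me1 regions (62.9 per Mb, 45.7 to 84.4) and the stretches 42 (32.3 per Mb, 23.3 to 43.7). The ratio was 1.95, with 2.1 and 1.97 by single library. Groups 1 and 3 had 63.3 and 55 per Mb. In group 2, 11 of 14 regions start before its main H3K27ac domain at 27098022 (112 per Mb). The rest of group 2 held only 3 (29.4 per Mb), near the 32.3 per Mb of the stretches, with this bound chosen after seeing the data. The autosomes and X outside the window had 28.8 replicated H3K4me1 regions per Mb and the rest of chromosome 6 had 24.5. Median widths of H3K4me1 regions were 825 bp in the groups and 763 bp in the stretches. Both were below the 944 bp found outside the window. In the groups, 31 of 44 (70.5%, 54.8 to 83.2%) overlapped an H3K27ac region, and 23 of 42 (54.8%, 38.7 to 70.2%) did so in the stretches, where 47.1% of all H3K4me1 regions did. Replicated H3K27ac covered 17.8% of the bases of the groups, 4.9% of the stretches and 2.54% of the autosomes and X outside the window. The part of this coverage in the overlap was not tested.

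H3K4me1 regions lying wholly inside an H3K27ac region were found mainly in the groups. In the groups 16 of 44 did (36.4%), 7 of 19 in group 1, 3 of 14 in group 2 and 6 of 11 in group 3. In the stretches 1 of 42 did (2.38%), and 8.02% of all H3K4me1 regions did. The 1 of the stretches and that from 27001103 in group 2 lie in the same H3K27ac region, from 26998756, which crosses the bound of group 2. All 3 of group 2 start before its main H3K27ac domain at 27098022. In the 4 pairs of single libraries the share was between 21.1 and 47.5% in the groups and between 1.85 and 7.41% in the stretches, with genome-wide shares of 5.08 to 14.9%. Wide H3K27ac regions leave more room for this, and the part of their width in it was not tested. The widest H3K4me1 regions of groups 1 and 3, at 26256796 to 26258584 (1789 bp) and 27867898 to 27869492 (1595 bp), had H3K27ac over 68.4 and 67.5% of their length. That of group 2, at 27001103 to 27003708 (2606 bp), lay wholly in H3K27ac. The widest one of the stretch between groups 2 and 3, at 27697619 to 27699047 (1429 bp), was 20715 bp from H3K27ac.

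The marks were compared by the log2 ratio of groups over stretches in each library, the comparison over libraries that the design allows. For covered length, H3K27ac gave 1.92 ± 0.01 (mean ± SD, n = 2) and H3K4me1 1.05 ± 0.18 (n = 2), a difference of 0.87 with both H3K27ac libraries above both H3K4me1 libraries. With 2 against 2 libraries an exact permutation test (two-sided) cannot go below 0.333, which was the p found here, or 0.5 after Benjamini-Hochberg adjustment over 3 tests. For median peak width, H3K27ac gave 0.68 ± 0.03 (n = 2). H3K4me1 gave 0.21 and -0.22 in replicates 1 and 2, so its widths went opposite ways, and the exact p was again 0.333 (0.5 adjusted). For peak number per Mb, the means were 1.1 ± 0.25 and 1.02 ± 0.07, a difference of 0.07 that is within the spread between replicates (exact p = 1). It turned to -0.10 without H3K27ac replicate 2 and to -0.07 with a common minimum width and joining distance for all libraries.

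Set beside the rest of the genome, the window was rich in H3K27ac. Among 1372 tiles of 2 Mb, laid end to end, the window being one of them, and each holding at least 1 replicated H3K27ac region, it ranked 10th by H3K27ac length (188 kb against a median of 43.8 kb) and 19th by number of regions (91 against 30). By number of H3K4me1 regions it ranked 339th (86 against a median of 60). Of the 924 such tiles with 20 or more H3K27ac regions, 47 had a lower share of them with H3K4me1 than the 49.5% of the window, and the median over the 924 was 76.2%. These ranks are a description and carry no test.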

How the data were processed

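For every immunoprecipitated library the authors deposited its own peak list, with 4 columns (chromosome, start, end and name), so the values used are positions in bp and peaks were not pooled. MACS2 2.1.0, Bowtie 1.1.2, Trimmomatic 0.33, bcl2fastq 2.17 and hg19 appear in the submitters' processing notes. What each tool did, the peak threshold and the control were not given in the sources used here. Depth is unknown, since the lists hold no heights or read numbers. The smallest peak was 221 and 172 bp in H3K27ac replicates 1 and 2 and 191 and 232 bp in H3K4me1 replicates 1 and 2, and the smallest gap 1 bp more, which affects peak number and width. The cell type could not be checked against marker genes without gene positions in hg19.

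Analyses used Python 3.11, numpy 2.4.6 and scipy 1.17.1 on the autosomes and X. Intervals belong where they start, and positions count from 1. The window and group positions were given with the question. Groups given as a point were widened by 100 kb on each side. Shares have exact Clopper-Pearson and densities exact Poisson 95% intervals. Places within 1 library are not replicates and were not tested. Interval functions were tested on simulated data. Named regions are the widest of each group and stretch for either mark, the 5 widest H3K27ac regions, the longest run without H3K27ac and the 3 domains with the most H3K27ac. The members, groups and these rules were chosen with earlier results of these data known. The 2376 bp class, positions along regions, inclusion within regions and 2 Mb tiles were chosen after seeing the data.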

Additional observations from a re-analysis of the deposited data

How the results depend on the processing

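Over 12 results and 89 alternatives, 61 stayed within the spread of single libraries, kept their direction where tested, or, for the number of domains (49), stayed within 1.5 times of it (66 when joined within 5 kb), 26 moved further and 2 reversed; the cause was not tested. H3K27ac stayed denser, wider and closer in the groups in all alternatives run. The union of peaks gave a width ratio of 1.39, overlap shares of 68.4 and 61.5% and both-flank shares of 31.6 and 25% (groups, stretches). Widening point groups by 50 kb gave a width ratio of 2.03 and an H3K4me1 density ratio of 1.53. Membership by the middle gave a width ratio of 1.96. A common minimum width and joining distance gave a width ratio of 2.02, an H3K4me1 density ratio of 2.08, an overlap share of 37.8% in the stretches and a log2 density difference between marks of -0.0681 (reversed). An overlap of 50% of the shorter region gave 29.8% in the stretches, and joining within 20 kb gave 25 domains. Leaving out 1 replicate at a time gave H3K27ac density ratios of 1.90 to 2.41, H3K4me1 density ratios of 1.97 to 2.1, overlap shares of 44.6 to 61.4% in the groups and 38.6 to 57.4% in the stretches, width ratios of 1.57 to 1.62, spacing ratios of 0.149 to 0.490, both-flank shares of 11.4 to 25.7% and 12.8 to 25.5%, and density differences between marks of -0.10 (reversed, without H3K27ac replicate 2) to 0.25. With group 2 counted only from its main domain on, chosen after seeing the data, the overlap share in the groups was 46.2%. Libraries with the same number showed no shared deviation (r = -0.0611 across 22947 windows of 100 kb, which are not independent replicates). A replicate block left the differences between marks at 0.07, 0.87 and 0.68 (density, covered length, width), with exact p of 1, 0.5 and 0.5, where 2 pairs allow no p below 0.5. Depth is unknown, so a missing peak cannot be told from a weak one.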

Other observations

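The H3K4me1 of group 2 came largely from the part that precedes its main H3K27ac domain. From the end of the longest run without H3K27ac, at 26851738, to the start of that domain at 27098022, 11 of 13 H3K27ac regions carried H3K4me1 (84.6%, exact 95% interval 54.6 to 98.1%), which covered 61.7% of their length and the middle base of 9. Over all H3K27ac regions of the autosomes and X, 73.5% carried H3K4me1, a share inside that interval. There H3K4me1 covered 51.7% of the length and the middle base of 50.7%. With replicate 1 of both marks 11 of 13 peaks of the block carried H3K4me1 (71.7% genome-wide), and with replicate 2 of both marks 16 of 19 did (77.9% genome-wide). This block held 21 H3K4me1 regions with a median width of 1165 bp, or 85.3 per Mb, against 28.8 per Mb on the autosomes and X outside the window. It includes 5 of the 11 H3K27ac regions of group 2, and all 5 carried H3K4me1. Of the 6 H3K27ac regions in the rest of group 2, 2 carried H3K4me1 (33.3%, 4.33 to 77.7%, an interval that also holds the 73.5%). It covered 9.79% of the length of the 6. H3K4me1 regions numbered 3 in that rest (29.4 per Mb), against 11 in the part of the block inside group 2 (112 per Mb). The bounds of this block were picked with its values in view, so it carries no test.

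The stretch between groups 2 and 3 was poor in replicated H3K4me1. It held 10 such regions (20 per Mb), against 32 (45.7 per Mb) between groups 1 and 2. Its longest runs without replicated H3K4me1, of 152038 and 148497 bp, adjoined each other around a single region and were met by 4 and 5 replicated H3K27ac regions. Of the 4, that from 27355667 to 27357431 reaches across the end of its run and carries H3K4me1. The H3K4me1 libraries differed here, with 11 peaks in replicate 1 and 25 in replicate 2. These are 22 and 50 per Mb, against 40.1 and 42.5 on the autosomes and X outside the window. In replicate 1 alone the longest run without the mark in this stretch was 152157 bp, and in replicate 2 alone it was 62386 bp.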
